A study of Mus musculus with 3 samples.

Results

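Barcodes with erythroid RNA from the ends of the long bones were taken from 3 droplet single-cell RNA-seq libraries of mice aged 3 weeks. A UMI (unique molecular identifier) tags 1 captured RNA molecule. A barcode entered as a cell if it had no fewer than 1500 detected genes (1000 in the Pdgfra-GFP library) and if mitochondrial and ribosomal protein genes took no more than 15% and 30% of its UMIs. Among the kept cells, a barcode was called erythroid when the adult globin genes Hba-a1, Hba-a2, Hbb-bs and Hbb-bt held at least 5% of its UMIs, Alas2 and Car2 together had at least 2 UMIs, and the endothelial genes Pecam1 and Cdh5 together had at most 1. This selected 96 of 15628 kept cells. The cells were thus selected on their globin, Alas2 and Car2 counts, so the levels of these genes are given only as a description, and so is every comparison of the chosen cells with the other cells of a library.

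The 2 metaphyseal libraries, replicates 1 and 2, came from male C57BL/6J mice. Their cell suspensions had passed magnetic columns that retain cells bearing lineage antigens, CD45 or CD117, so most blood cells had been removed. The Pdgfra-GFP library is a single library of GFP+ cells sorted by flow cytometry from male mice heterozygous for Pdgfra-H2B-GFP, a knock-in that places a nuclear GFP under the control of the Pdgfra locus. The study's text gives their source in one place as the metaphysis and epiphysis together and in another as the dissected metaphysis, from which the other libraries came. All 3 came from femur and tibia digested with collagenase, and none of the preparations was made to collect erythroid cells. The erythroid cells are therefore those that passed a depletion or a sort aimed at other cells, and their number does not measure erythropoiesis in the bone. The labels do not say how many mice each suspension held, and with 1 Pdgfra-GFP library a difference between the sorted and the depleted cells has no test, and sort, depletion, genotype and any difference of region cannot be told apart.

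Red blood cells are made in the marrow from erythroid progenitors that divide several times while they fill with haemoglobin. During this terminal differentiation the transcription factors GATA1 and KLF1 switch on the globins, the enzymes of haem synthesis, the iron uptake route and the proteins of the red cell membrane and its skeleton. Division then stops, the nucleus is expelled, and the reticulocyte that remains loses its ribosomes and mitochondria and keeps a small set of messages for a short time.

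The libraries held 25243314 UMIs (metaphyseal replicate 1), 22082735 (metaphyseal replicate 2) and 91747759 (Pdgfra-GFP), and triplets of values keep this order. The rule found 18 of 2382 kept cells (0.756%, exact 95% interval 0.448 to 1.19), 12 of 2004 (0.599%, 0.310 to 1.04) and 66 of 11242 (0.587%, 0.454 to 0.746). The intervals cover counting error only, and all 3 overlap at these gene minimums, which differ between the preparations. With 1500 genes in every library the shares were 0.756, 0.599 and 0.488%. With 1000 genes they were 0.948, 0.735 and 0.587%, and with 500 genes 1.58, 1.48 and 0.777%. The likeness of the 3 shares thus depends on the minimum. The erythroid barcodes had a median of 12938 UMIs and 2197 genes (4150 to 40895 UMIs) in replicate 1, 11832 UMIs and 2256 genes (8035 to 35532 UMIs) in replicate 2, and 8562 UMIs and 1698 genes (2937 to 23310 UMIs) in the Pdgfra-GFP library. They were thus deep in UMIs, and globin took a large part of that depth.

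The globin share, on which the barcodes were selected, spanned a wide range. It ranged from 7.33 to 65.1% (median 41.8%), from 5.35 to 66.6% (median 48.7%) and from 5.11 to 73.9% (median 41.8%), whereas the median of the other kept cells was 0.00851, 0.00847 and 0.0535%. Near-empty barcodes with at most 100 UMIs, a measure of free RNA, held 1.56, 1.44 and 1.68% globin. The barcodes just inside the 5% threshold had 7.33, 5.35 and 5.11%, and the nearest barcodes outside it that met the other marks had 1.16, 2.04 and 3.05%. Another 0, 3 and 2 kept barcodes had over 5% globin but failed another mark, and 3, 2 and 11 kept cells lay between 2 and 10%. The least Alas2 and Car2 in any chosen cell was 13, 6 and 7 UMIs. No kept barcode sequence of an erythroid cell occurred in another library, although the Pdgfra-GFP library shared 9 and 10 other kept barcodes with the metaphyseal ones. Scrublet, which compares cells with simulated doublets, called 25, 17 and 155 kept cells, and 0 of the 96. These calls were 1.05, 0.848 and 1.38% of kept cells, below the expected doublet rates of 1.91, 1.60 and 8.99%.

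**Figure D1:**
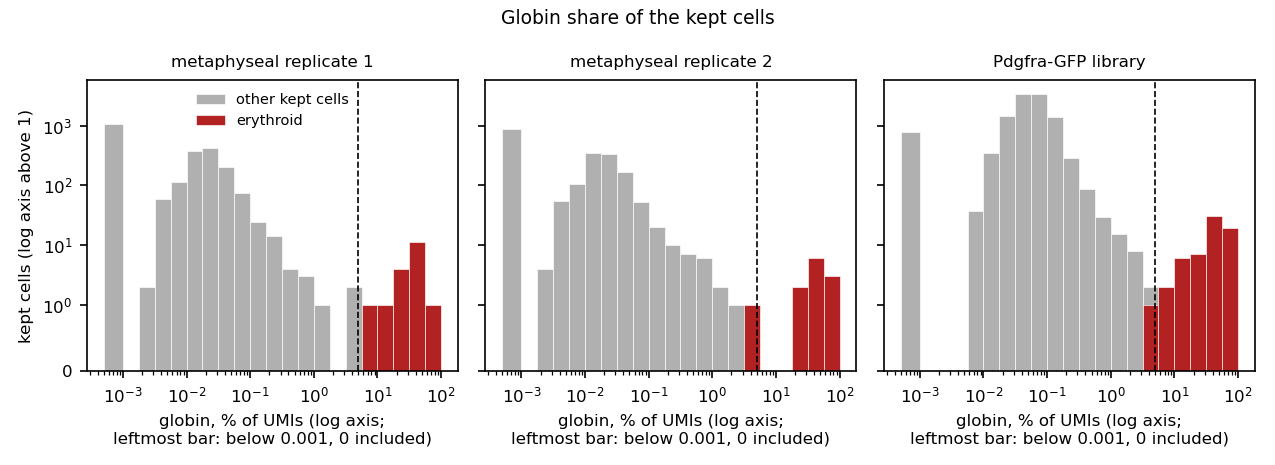
Number of kept cells (vertical axis, logarithmic above 1) by the percent of a cell's UMIs that are alpha- and beta-globin (horizontal axis, logarithmic) in each library. Grey bars are other kept cells, red bars the erythroid barcodes drawn over them, and the dashed line marks 5%; the red bars lie at the right, with medians of 41.8, 48.7 and 41.8%, beside a few globin-rich barcodes that failed another mark.

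The erythroid label was checked against markers that the rule did not use. The erythroid markers outside the rule that are described here are Klf1 and Gata1, transcription factors, Epor, the receptor of erythropoietin, and Slc4a1 and Rhag, of the red cell membrane. All were at least 2-fold higher than in the other kept cells of every library. Ahsp, the gene of the alpha-globin chaperone, was not analysed here. The progenitor genes Kit and Gata2 were at or near 0: Kit had 0, 0 and 3 UMIs over all the erythroid barcodes, and Gata2 stood at 0, 0 and 2.60 CPM. CPM here are a gene's UMIs per 1000000 UMIs that are not globin, since globin would otherwise set the level of every other gene.

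Many of the barcodes also carried RNA of another cell type, and the 2 kinds of preparation differed in which. Leukocyte RNA, taken as at least 3 UMIs of the pan-leukocyte genes Ptprc (CD45), Laptm5 and Coro1a, was present in 7 of 18 and 6 of 12 metaphyseal barcodes and in 0 of 66 in the Pdgfra-GFP library. A count of 0 of 66 allows a share of up to 4.55%, taken as 3 in 66, and its exact 95% interval reaches 5.44%. The endothelial cells of the same libraries, with Pecam1 and Cdh5 at 2 UMIs or more, had leukocyte RNA in 0.518, 0.549 and 3.34% of cells. Of the 13 metaphyseal barcodes, 7 gave more than 1% of their non-globin UMIs to 8 neutrophil genes such as S100a8, S100a9 and Ngp, with 982 to 11596 UMIs of that list each. Another 3 (replicate 1, ranks 7 and 11 by globin share; replicate 2, rank 11) carried 3 to 10 UMIs of Mpeg1 and 3 to 11 of Ccl6, genes of macrophages and other myeloid cells, and 3 (replicate 1, rank 18; replicate 2, ranks 10 and 12) carried 11 to 39 UMIs of B-lineage genes. The neutrophil list summed to 89377, 175217 and 200 CPM over all erythroid barcodes, and to 91.0, 56.3 and 200 CPM without the 13. S100a8 and S100a9 were its most abundant genes. Over all barcodes, other lineages' lists summed to less than the neutrophil list in the metaphyseal libraries, but not all were absent. In the Pdgfra-GFP library the macrophage and B-lineage lists summed to more than the neutrophil list, but nearly all of these 2 sums was Vcam1 and Ebf1. The other kept cells, mostly stromal in that library, had 838, 879 and 710 CPM of the macrophage list and 548, 572 and 511 CPM of the B-lineage list. These sums alone therefore do not show RNA of macrophages or B cells there. The macrophage list (7 genes, Vcam1 the most abundant) summed to 350, 448 and 434 CPM, with C1qb and C1qc at 0, and the B-lineage list (6 genes, Ebf1 the most abundant) to 196, 836 and 268 CPM, with Igll1 at 0. The megakaryocyte list summed to 6.14, 0 and 33.8 CPM and the mast cell and basophil list to 0, 0 and 5.19 CPM.

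Stromal RNA, more than 1% of UMIs from 11 genes such as Col1a1, Sparc and Cxcl12, was found in 3 of 18, 2 of 12 and 20 of 66 barcodes (1 of them in replicate 2 also with leukocyte RNA, and counted there below), with up to 30.6% in the Pdgfra-GFP library. More than 1% of UMIs from the same 11 genes was found in 15.2, 16.7 and 55.0% of endothelial cells and 11.1, 7.46 and 25.4% of leukocytes. Whether those cells make some of this RNA themselves was not tested, so these shares are no measure of carried-over stromal RNA. The summed stromal level over the erythroid barcodes was 3449, 4069 and 40056 CPM, against 64573, 66244 and 119880 CPM in the other kept cells. A barcode of replicate 1 held 169 UMIs of osteoclast genes, 121 of them Acp5, and others held 339 (replicate 1) and 303 and 681 (Pdgfra-GFP library) UMIs of chondrocyte genes. Leaving aside leukocyte RNA and more than 1% stromal RNA, 8 of 18, 5 of 12 and 46 of 66 barcodes remained, 59 in all. The 1% is of all UMIs, globin included. The 59, called barcodes with neither kind of RNA, still had 296, 610 and 5675 CPM of the stromal list, scaled to UMIs that are not globin. This division of the barcodes was made after the data were seen.

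The 59 barcodes and the other 37 differed in genes that had no part in the rule or in the division. Klf1 (chr8:84901928-84905291, forward strand, GRCm38), the erythroid transcription factor that activates adult beta-globin, had a UMI in 7 of 8, 5 of 5 and 41 of 46 of the barcodes with neither kind of RNA. It had one in 1 of 7 and 0 of 6 of the barcodes with leukocyte RNA, and in 1 of 3, 0 of 1 and 5 of 20 of those with stromal RNA. In the whole series Klf1 thus marked 53 of 59, 1 of 13 and 6 of 24 barcodes. The precursor label is therefore not borne out by Klf1 in most of the 37, and all 96 are called erythroid barcodes after the rule. Whether the 37 hold RNA of more than 1 cell was not tested beyond the Scrublet calls. Depth ran the other way, with medians of 8801 UMIs in the 59, 16214 in the 13 and 10830 in the 24. Among the endothelial cells Klf1 had a UMI in 0.173, 0 and 0% of cells, and among the leukocytes in 0, 0 and 1.38%.

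The genes of cell division followed Klf1. At least 10 UMIs of both an S-phase list of 19 genes and a G2/M list of 22 genes were present in 52 of the 59 barcodes, 5 of the 13 with leukocyte RNA and 4 of the 24 with stromal RNA. The median number of S-phase UMIs per barcode was 47.0, 3.0 and 2.0 in these classes. Barcodes are not replicates, so these contrasts carry no test, but their direction was the same in each library that held the classes.

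**Figure D2:**
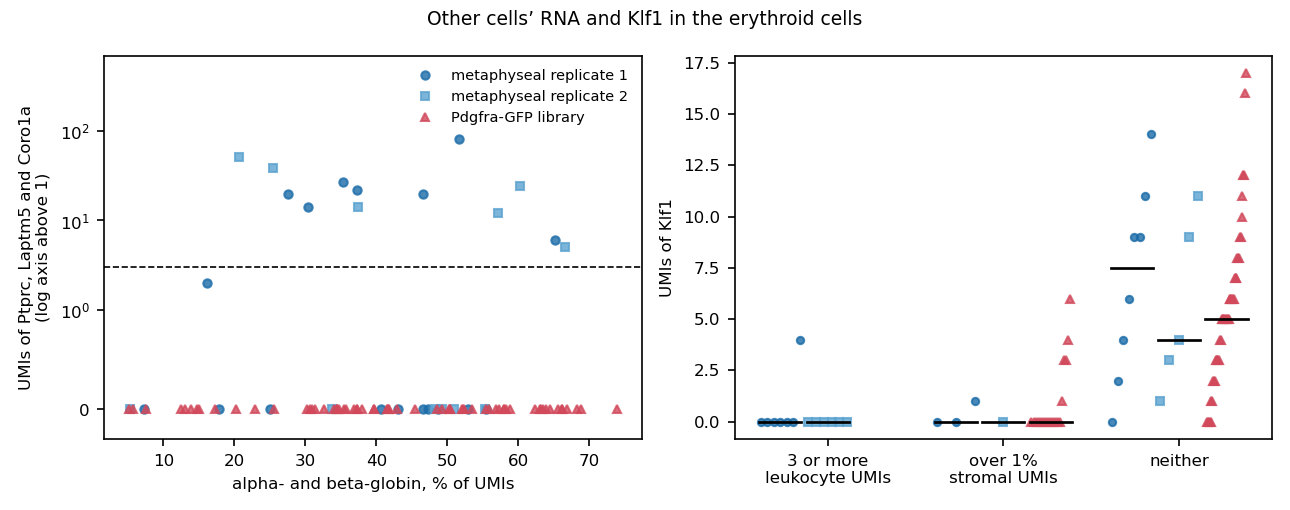
Left, UMIs of Ptprc, Laptm5 and Coro1a (logarithmic above 1) against the globin share of each erythroid barcode, with the dashed line at 3 UMIs. Right, UMIs of Klf1 in the same barcodes by class and library, with black lines at the medians: 0 Klf1 UMIs is the median of the barcodes with leukocyte or stromal RNA in every library, and 7.50, 4.0 and 5.0 UMIs that of the others.

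Adult globins made up almost all globin RNA. On the scale of non-globin UMIs, Hbb-bs stood at 370062, 365253 and 307425 CPM, Hbb-bt at 111432, 100527 and 107448, Hba-a1 at 99416, 129174 and 175948, and Hba-a2 at 63663, 80940 and 95160. The copies within each pair are nearly identical in sequence, so the division of reads between them is uncertain. The embryonic genes Hba-x, Hbb-bh1 and Hbb-y had 0 UMIs in all 96 barcodes, and Hbb-bh2 had 1. The theta-globin gene Hbq1b was low but present, at 123, 121 and 114 CPM with 0, 0 and 4 UMIs in all other kept cells.

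The balance of beta- to alpha-globin differed between libraries. The ratio of their UMIs per barcode ran from 1.75 to 3.66 (median 2.97) in replicate 1, from 1.85 to 3.53 (median 2.25) in replicate 2 and from 1.05 to 2.12 (median 1.53) in the Pdgfra-GFP library. The range of the Pdgfra-GFP library and the joint range of the metaphyseal libraries overlapped between 1.75 and 2.12, where 1 of 18, 5 of 12 and 11 of 66 barcodes lay. The rule used the sum of the globins and not their ratio. Its median was 2.88 in the replicate 1 barcodes with leukocyte RNA and 2.76 in those with neither kind, and 2.19 and 2.24 in replicate 2. In the Pdgfra-GFP library it was 1.56 in the barcodes with neither kind. The files hold 3′ counts, so the ratio is of captured 3′ ends and is no ratio of chains.

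**Figure D3:**
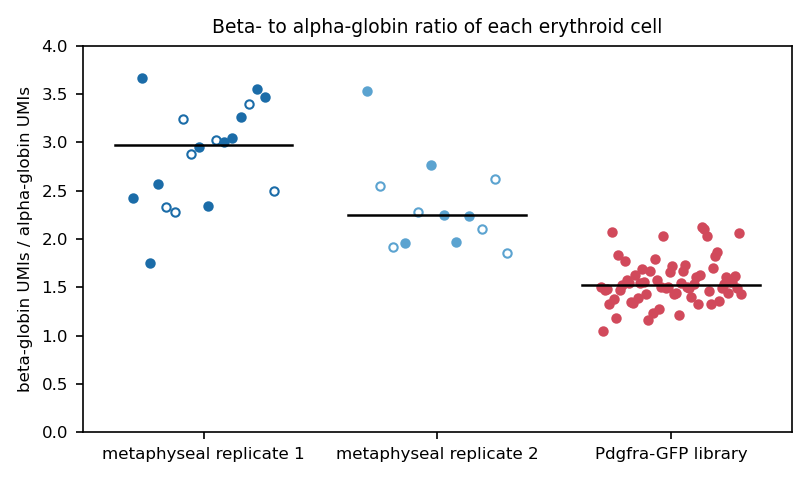
Beta-globin UMIs divided by alpha-globin UMIs in each erythroid barcode, ordered within a library by globin share, with open circles for barcodes with leukocyte RNA and black lines at the library medians of 2.97, 2.25 and 1.53. The points of the Pdgfra-GFP library lie between 1.05 and 2.12, below most metaphyseal points.

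Erythroid genes are commonly controlled through GATA sites near their start, and the upstream sequence of 4 genes is shown so that these letters can be seen beside the levels. The search was for AGATAA or TGATAA, or AGATAG or TGATAG, on either strand within 250 bases before the start, in promoters from RefSeq on GRCm38.p6. Of 32851 promoters in that table, 8718 (26.5%) held at least 1. Of the 12 genes named below for their ratio to other cells, 7 had a promoter in the table and 4 of these held the motif, as did 8 of 14 membrane genes, 3 of 11 haem genes, 6 of 16 transcription factor genes and 3 of the 4 globin genes of the rule. The runs shown are the upstream bases that lie outside annotated exons: 89 bases at chr11:32283422-32283510 (forward strand) for Hba-a1, 82 bases at chr7:103828097-103828178 (reverse strand) for Hbb-bs, 208 bases at chrX:150547167-150547374 (forward strand) for Alas2, which encodes the first enzyme of erythroid haem synthesis, and 250 bases at chr17:36869324-36869573 (forward strand) for Trim10. Capitals mark the motif, which begins 183, 210, 86 and 163 bases before the start.
Hba-a1: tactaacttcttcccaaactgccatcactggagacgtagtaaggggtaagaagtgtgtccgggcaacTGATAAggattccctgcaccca
Hbb-bs: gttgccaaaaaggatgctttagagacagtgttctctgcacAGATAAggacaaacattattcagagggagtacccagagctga
Alas2: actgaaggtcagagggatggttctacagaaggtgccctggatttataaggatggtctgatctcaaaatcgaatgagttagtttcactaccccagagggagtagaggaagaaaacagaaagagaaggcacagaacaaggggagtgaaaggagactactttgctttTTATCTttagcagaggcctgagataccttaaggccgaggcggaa
Trim10: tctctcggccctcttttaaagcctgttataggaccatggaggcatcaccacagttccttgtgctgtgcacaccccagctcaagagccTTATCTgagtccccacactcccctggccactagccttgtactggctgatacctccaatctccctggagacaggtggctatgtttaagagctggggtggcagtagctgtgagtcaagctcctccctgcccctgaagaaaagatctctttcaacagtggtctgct
TTATCT is the motif read on the other strand. Hbb-bs also had the letters CCACACCC of the CACC box, which KLF1 is known to bind, 93 bases before its start in a part not shown, and 1050 of the 32851 promoters held that box. Among the groups above it was in 0 of 7 named genes, 0 of 11 haem genes, 1 of 14 membrane genes, 1 of 16 transcription factor genes and 1 of 4 globin genes. A match to these letters is not a measured site.

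Of 5582 genes with at least 20 CPM in either set of cells in every library, 573 (10.3%) were at least 2-fold higher in the erythroid barcodes than in the other kept cells of every library and 452 (8.10%) at least 2-fold lower. Without the 13 barcodes with leukocyte RNA these numbers were 738 of 5726 (12.9%) and 136 (2.38%), and in the 59 barcodes they were 828 of 5700 (14.5%) and 252 (4.42%). Among the 12 genes with the greatest ratio in their lowest library, of those with at least 100 CPM in all 3, were Trim10, Slc4a1, Ctse, Hemgn, Tspo2, Rhag, Cldn13, Tspan33, Icam4 and Sptb. Slc4a1, the anion exchanger band 3, had 1160, 1095 and 826 CPM and a lowest ratio of 1311. Trim10, a RING-finger protein of terminal erythroid differentiation, had 276, 388 and 483 CPM, and the aspartic protease gene Ctse 700, 871 and 1519 CPM. Hemgn, a nuclear protein of blood-forming cells, had 693, 664 and 1049 CPM. The other 6 lay between 138 and 717 CPM, with lowest ratios of 309 to 748. Trim10 and Rhag had only 1 and 2 UMIs in all other cells of replicate 1, and their lowest ratios, 1577 and 613, were those of replicate 2.

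**Figure D4:**
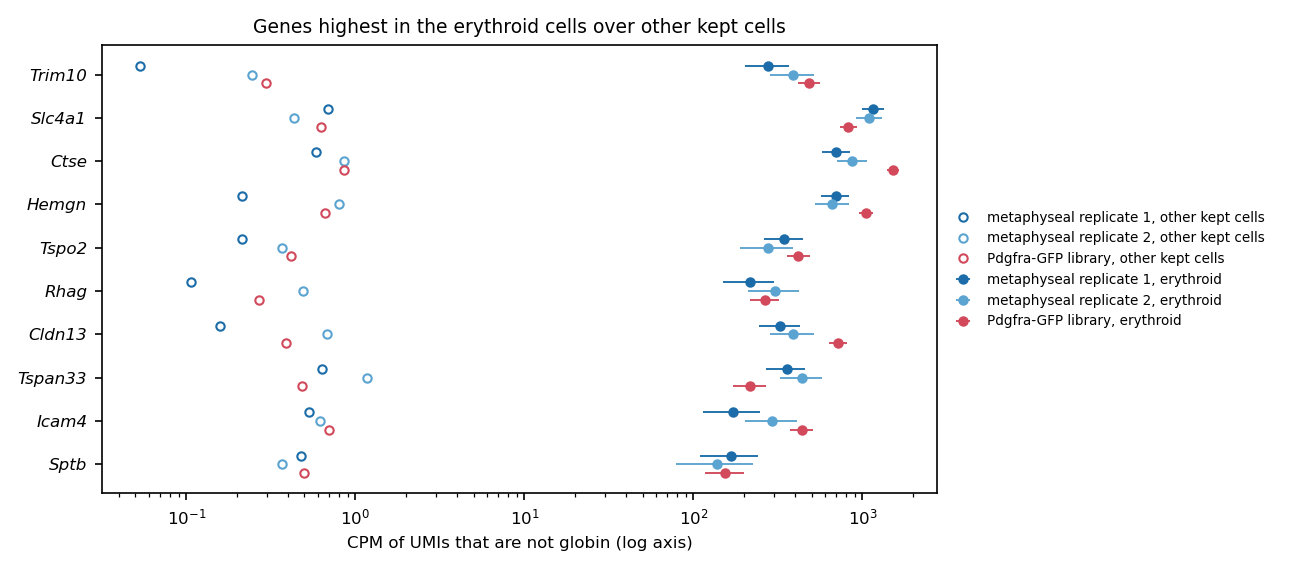
Level (horizontal axis, CPM of UMIs that are not globin, logarithmic) of 10 named genes in the erythroid barcodes (filled, with exact Poisson intervals for counting error) and in the other kept cells (open) of each library. Filled points lie between 138 and 1519 CPM, and the open points at or below 1.17 CPM, the level of Tspan33 in metaphyseal replicate 2.

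Membrane and skeleton genes were high as a group. Of 20 listed, 18 passed the 20 CPM minimum, and 17 of these were at least 2-fold higher in every library, where 10.3% of all genes were. The exception was Cd59a, an inhibitor of complement, at 30.7, 17.2 and 90.9 CPM against 32.3, 39.6 and 31.0 in the other cells. Rhd, of the Rh blood group complex, had 994, 879 and 1808 CPM. The beta-spectrin gene Sptb had 166, 138 and 153 CPM, and Ank1, the ankyrin that ties spectrin to band 3, 85.9, 121 and 80.5 CPM. Slc2a1, a glucose transporter, was low, at 18.4, 8.62 and 0 CPM.

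Haem synthesis genes outside the rule were higher for 10 of 12. Urod, a cytosolic enzyme in the middle of the pathway, had 405, 431 and 896 CPM. Cpox had 718, 457 and 1114 CPM, and Fech, the mitochondrial enzyme that inserts iron, 687, 810 and 826 CPM. Tmem14c, a mitochondrial porphyrin transporter, had 914, 819 and 2327 CPM. The 2 that were not higher were Alas1, the housekeeping form of the enzyme that Alas2 encodes, at 24.5, 43.1 and 5.19 CPM, and Clpx, at 18.4, 51.7 and 23.4 CPM.

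Of 14 iron genes that passed the minimum, 8 were higher. Slc25a37 (mitoferrin-1), which brings iron into mitochondria, had 902, 1078 and 634 CPM against 16.8, 15.3 and 4.02 in the other cells. Tfrc, the transferrin receptor, had 344, 198 and 226 CPM against 5.09, 5.04 and 11.8, and the iron-sulphur protein gene Glrx5 1098, 940 and 1561 CPM. The ferritin heavy chain gene Fth1 was the most abundant of the list at 7659, 7552 and 10360 CPM, 2.35-fold over the other cells in the lowest library. Slc40a1, the iron exporter ferroportin, was not higher, at 12.3, 51.7 and 51.9 CPM against 51.9, 58.3 and 39.4. Of the antioxidant list 5 of 10 were higher, led by Prdx2 at 3952, 3793 and 5774 CPM, Gpx1 at 4615, 4931 and 5483 and Blvrb at 2037, 1897 and 3317, all enzymes that are abundant in red cells.

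Transcription factor genes were higher for 11 of 14. Klf1 had 368, 241 and 701 CPM, Gata1 55.2, 51.7 and 184, and Gfi1b 49.1, 43.1 and 85.7. Tal1 and Lmo2, partners of GATA1, had 79.8, 43.1 and 182 CPM and 368, 198 and 449 CPM. Limited to the 59 barcodes, Klf1 had 813, 1004 and 1063 CPM and Gata1 103, 215 and 277 CPM. Spi1, the myeloid and lymphoid factor PU.1, had 338, 224 and 0 CPM over all barcodes and 296, 0 and 0 CPM in the 59. Myb and Myc, genes of earlier progenitors, did not exceed 60.3 and 25.9 CPM.

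Among cytokine receptors and targets the picture was mixed, with 3 of 7 higher and 2 lower. Epor, the receptor of erythropoietin, had 73.6, 69.0 and 156 CPM, and 163, 179 and 239 CPM in the 59 barcodes. Pim1, a kinase gene that responds to cytokines, had 338, 207 and 119 CPM. Bcl2l1, a survival gene, had 141, 69.0 and 51.9 CPM over all barcodes but 14.8, 35.9 and 46.2 CPM in the 59. The feedback inhibitor genes Socs2 and Socs3 were lower than in the other cells, Socs3 at 123, 77.6 and 39.0 CPM against 362, 349 and 198. Erfe, the erythroid hormone that acts on hepcidin, had 0, 0 and 2.60 CPM.

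Of the genes of adhesion within erythroblastic islands, 3 of 7 were higher. These include Itga4, the integrin chain that binds VCAM1, at 67.5, 147 and 57.1 CPM, and Cd47, which restrains phagocytosis, at 847, 991 and 1034 CPM against 301, 280 and 200. Icam4, a ligand of alpha-V integrins on island macrophages, had 172, 293 and 439 CPM.

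Genes of organelle clearance and of the late reticulocyte were higher for 13 of 16, but the levels of several differed between all barcodes and the 59. Mkrn1 had 1596, 1069 and 743 CPM over all barcodes and 414, 502 and 685 CPM in the 59. Tent5c, a poly(A) polymerase, had 479, 250 and 135 CPM and then 88.7, 179 and 109 CPM. Xpo7, an exporter of the maturing erythroblast nucleus, had 307, 302 and 41.6 CPM and then 14.8 CPM (1 UMI, 0.374 to 82.3), 0 and 12.6 CPM (3 UMIs, 2.60 to 36.8).

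Within the metaphyseal libraries Bpgm and Xpo7 differed from Klf1 in the classes of barcodes that held them. In replicate 1, Bpgm, which makes the haemoglobin ligand 2,3-bisphosphoglycerate, had 3077 CPM in the 7 barcodes with leukocyte RNA, 5296 in the 3 with stromal RNA and 414 in the 8 with neither. Xpo7 had 266, 1435 and 14.8 CPM in these classes, whereas Klf1 had 53.3, 49.5 and 813. In replicate 2, Bpgm had 1714 CPM with leukocyte RNA and 71.7 with neither kind, Xpo7 435 and 0, and Klf1 0 and 1004. In the Pdgfra-GFP library, Bpgm had 742 CPM in the 20 barcodes with stromal RNA and 328 in the 46 with neither, and Klf1 116 and 1063. In the 1 barcode of replicate 2 with stromal RNA, Bpgm, Xpo7 and Klf1 were all at 0. The late list as a whole did not follow Bpgm in every library: it summed to 10044, 18957 and 5275 CPM in the classes of replicate 1, but to 7987 with leukocyte RNA and 7673 with neither in replicate 2, and to 5314 with stromal RNA and 6419 with neither in the Pdgfra-GFP library. The part of the other cells' RNA in this was not tested.

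Most erythroid barcodes carried the genes of division. All 22 G2/M genes and all 16 S-phase genes that passed the minimum were at least 2-fold higher in every library. Rrm2, a subunit of ribonucleotide reductase, had 651, 716 and 1202 CPM against 22.0, 19.7 and 20.7, and Ube2c of the anaphase-promoting complex 822, 1198 and 1574 CPM against 44.1, 41.7 and 44.1. After each cell was thinned to 3000 non-globin UMIs, at least 3 UMIs of the G2/M list were found in 10 of 18 barcodes (55.6%, 30.8 to 78.5), 7 of 12 (58.3%, 27.7 to 84.8) and 44 of 52 (84.6%, 71.9 to 93.1), with 14 shallower barcodes of the Pdgfra-GFP library left out. Before thinning the shares were 77.8, 83.3 and 87.9%. Thinned in the same way, the endothelial cells had 8.41, 8.33 and 9.80%, and the other non-leukocyte cells at most 4.40%. The leukocyte class, which holds dividing marrow cells, had 40.0, 47.8 and 31.1%.

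Without the barcodes with leukocyte RNA the thinned share was 81.8% (9 of 11), 83.3% (5 of 6) and 84.6%, so the metaphyseal shares lay near that of the sorted library once those barcodes were left out. Of the cell cycle inhibitor genes, Cdkn2d (423, 379 and 636 CPM), Cdkn2c (117, 129 and 247) and Btg2 (896, 698 and 296) were higher than in the other cells, and Cdkn1a and Cdkn1c were lower.

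The antigens of the depletion and the reporter of the sort were measured as RNA. Ptprc had 227, 216 and 0 CPM over the erythroid barcodes, and 11.4 CPM (1 UMI), 0 and 0 without those with leukocyte RNA. Ptprc is 1 of the genes that define leukocyte RNA, so this fall follows from the definition. H2B_GFP had 9 UMIs in the sorted library, 23.4 CPM (10.7 to 44.4), against 22.4 CPM (17.4 to 28.3) in its leukocyte class, 129 in its endothelial cells and 102 in its other cells. A UMI of it was present in 6 of 66 erythroid barcodes (9.09%, 3.41 to 18.7, median depth 8562), in 11.3% of the leukocytes (median depth 6970), in 14.3% of the endothelial cells (median depth 4987) and in 30.2% of the other cells (median depth 5255). Of the 9 UMIs, 7 lay in the 20 barcodes with stromal RNA (47.6 CPM, 19.1 to 98.1) and 2 in the 46 with neither kind (8.40 CPM, 1.02 to 30.3). In the metaphyseal libraries it had 0 UMIs.

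A test was possible within the erythroid barcodes, since each library holds both globin-poor and globin-rich ones. In each library they were divided at the median globin share into a globin-low and a globin-high class of 9 and 9, 6 and 6, and 33 and 33 barcodes. The division fell between 40.6 and 43.1%, 48.2 and 49.3%, and 41.7 and 41.8%, with 5, 3 and 12 barcodes within 5 points of it, so the classes are ranges and not types. UMIs were summed per class and library, the globins, Alas2, Car2, Pecam1 and Cdh5 were left out, and the 6 sums were compared with edgeR's quasi-likelihood test with library as a block (3 pairs). The metaphyseal pairs are separate suspensions by their labels, and p-values measure the spread between the 3 pairs.

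Of 1366 genes tested, 0 passed a Benjamini-Hochberg adjusted p of 0.05 in either direction (0% higher and 0% lower, edgeR), 161 (11.8%) had an unadjusted p under 0.05, and the smallest adjusted p was 0.296. DESeq2's Wald test called 32 on the same sums, 30 of them higher, and the edgeR fit with no filter on low counts called 45 of 13932, of which 15 were higher. On simulated counts of 1225 genes with 200 changed 4-fold, the edgeR fit recovered 80 of the 197 changed genes that passed its filter (40.6%) and called 0 others. The changed genes were drawn only from those above a minimum mean count, and every gene had the common dispersion of 0.186. Recovery among genes with fewer counts was therefore not measured. Ribosomal protein genes, whose summed share the rule limits, were among the genes tested, and without them 0 of 1315 passed (158 with an unadjusted p under 0.05, smallest adjusted p 0.324). The sums held 35586 to 264848 UMIs.

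The gene with the smallest p was Bpgm (GRCm38, chr6:34476207-34505613, forward strand), with a log2 difference of 2.12 (SE 0.32, edgeR adjusted p = 0.296). It had 969 CPM in globin-low and 4086 in globin-high barcodes of replicate 1, 502 and 2810 in replicate 2, and 219 and 1110 in the Pdgfra-GFP library, higher in 3 of 3 libraries. Its UMIs in replicate 1 lay in barcodes with leukocyte RNA (231), stromal RNA (107) and neither (28). In replicate 2 these numbers were 138, 0 and 2. The Pdgfra-GFP library had 109 in barcodes with stromal RNA and 78 in those with neither. Fech and Tent5c had log2 differences of 1.70 and 1.98 with the same adjusted p and the same direction in each library. Bpgm, Fech and Tent5c did not pass this test over all barcodes. In the barcodes with neither kind of RNA, divided anew, Fech had a log2 difference of 1.29 and Tent5c had no value. Tent5c UMIs in barcodes with leukocyte RNA, stromal RNA and neither were 46, 26 and 6 in replicate 1 and 24, 0 and 5 in replicate 2. The Pdgfra-GFP library had 26 in barcodes with stromal RNA and 26 in those with neither.

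Direction across the libraries is given as a count beside that of all genes, of which 348 (25.5%) were higher in the globin-high class of every library and 125 (9.15%) lower. All 13 late genes tested were higher in every library, with a median log2 of 1.35 where the median of all genes was 0.02. So were 8 of 9 iron genes, 11 of 15 membrane genes and 5 of 9 haem genes. In the 59 barcodes, where 32.4% of all genes were higher in every library, the counts were 6 of 9 late, 3 of 6 iron, 8 of 11 membrane and 4 of 9 haem genes. Of the G2/M genes 5 of 19 were higher in every library over all barcodes and 11 of 16 in the 59. Of the S-phase genes 1 of 13 was higher and 2 lower over all barcodes, and 2 of 9 were higher in the 59. The classes also differed in other cells' RNA: the neutrophil list held 14.2% of the non-globin UMIs in globin-low and 1.46% in globin-high barcodes of replicate 1, 25.4 and 0.0139% in replicate 2, and 0.0154 and 0.0304% in the Pdgfra-GFP library. Stromal genes held 0.0325 and 0.786% in replicate 1, 0.559 and 0.0694% in replicate 2, and 5.15 and 1.42% in the Pdgfra-GFP library. Their part in the directions above was not tested, beyond the values without such barcodes that follow.

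In the 59 barcodes, divided anew (4 and 4, 2 and 3, 23 and 23), 70 of 596 genes (11.7%) passed as higher and 89 (14.9%) as lower in the globin-high class (edgeR). This subset was chosen after the data were seen. Its 1% stromal limit counts globin UMIs, so it is looser per non-globin UMI in globin-rich barcodes. The part of this in the calls was not tested. Of the 89, 66 were ribosomal protein genes, which the rule limits, so their values are a description: their median log2 difference was -1.24 over 79 genes. With ribosomal protein genes left out of the sums, 8 of 510 genes (1.57%) rose and 22 (4.31%) fell. The genes below were chosen after their values were seen, and their values are from the fit without ribosomal protein genes.

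Cdkn2d, a cell cycle inhibitor, had the greatest difference among those that rose, with a log2 difference of 2.20 (SE 0.38, edgeR adjusted p = 0.00982). Scaled with all genes, it had 326 CPM in globin-low and 1847 in globin-high barcodes of replicate 1, 375 and 1483 in replicate 2, and 285 and 2381 in the Pdgfra-GFP library, higher in 3 of 3. The RNA-binding protein gene Rbm38 rose by 1.49, and Lbr, the lamin B receptor of the inner nuclear membrane, by 1.39. Gapdh, of glycolysis, fell by 2.84, the translation elongation genes Eef1a1 and Eef1b2 fell by 1.72 and 2.17, and Car1, a carbonic anhydrase, fell by 2.04.

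The other genes named here passed with ribosomal protein genes in the sums but not without them. Slc25a37 had log2 differences of 1.49 with them (edgeR adjusted p = 0.0112) and 1.21 without them (adjusted p = 0.0543). Fech had 1.29 (adjusted p = 0.0149) and 1.01 (adjusted p = 0.0933), and Slc4a1 1.08 (adjusted p = 0.0261) and 0.81 (adjusted p = 0.136). Mki67, a marker of dividing cells, had 1.35 (adjusted p = 0.0123) and 1.08 (adjusted p = 0.0823).

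These calls rest on few cells. Without replicate 2, whose classes hold 2 and 3 barcodes, 0 genes passed (edgeR, smallest adjusted p = 0.0660), without the block 0 passed (smallest adjusted p = 0.0516), and with all barcodes but those with leukocyte RNA 0 of 752 passed (smallest adjusted p = 0.0512). The 59 still hold the barcode of replicate 1 with 169 osteoclast-gene UMIs, which had 0 Klf1 UMIs and gave 24683 non-globin UMIs to the globin-low class of that library. Without it 62 of 366 genes (16.9%) passed as higher and 74 (20.2%) as lower, 63 of the latter ribosomal protein genes. In that fit Cdkn2d, Rbm38, Lbr, Eef1a1 and Eef1b2 had log2 differences of 2.40, 1.85, 1.61, -1.26 and -1.74, all past the threshold, and Gapdh and Car1 did not reach the filter and have no value.

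**Figure D5:**
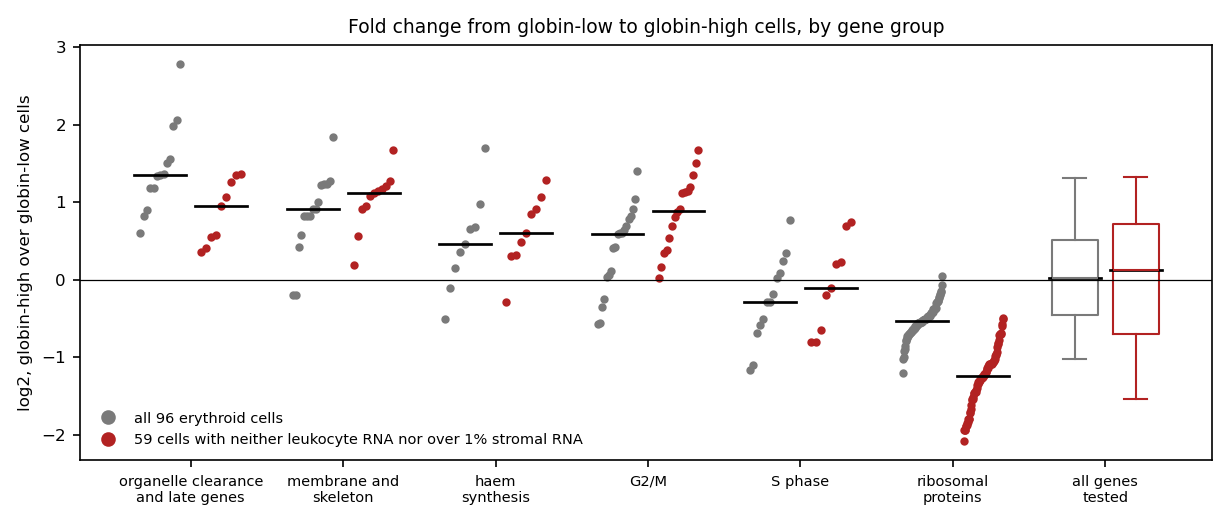
Log2 difference between globin-high and globin-low barcodes (vertical axis) of each gene of a group, with black lines at the medians. Grey is all 96 erythroid barcodes, and red the 59 with neither leukocyte RNA nor over 1% stromal RNA. The boxes of all genes show quartiles with whiskers at the 5th and 95th percentiles; late genes lie above 0 (medians 1.35 and 0.95) and most membrane genes do (0.91 and 1.12), and nearly all ribosomal protein genes lie below it (-0.53 and -1.24).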

How the data were processed

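The 3 libraries were made with a 10x Genomics 3′ kit. According to the study's methods and the submitters' notes, the authors trimmed reads with fastp 0.20, aligned them with STARsolo (STAR 2.7.3a) to mm10 with Gencode M23 plus the reporter transgene, and the files they deposited give unnormalized UMI counts for every barcode, with no cell filter. Only the later steps were done here. The rule's filters on genes, mitochondrial and ribosomal UMIs are those of the study, with ribosomal genes taken as symbols that begin with Rps or Rpl. Rows with the same symbol were summed. EmptyDrops was not used. Scrublet (scanpy 1.11.5) marked doublets, which stayed in. Summed counts were tested with edgeR 4.0.16 (TMM) in R 4.3.3, with DESeq2 1.42.0 as an alternative, and the fit was tested on simulated data. Python 3.11.15 and scipy 1.17.1 gave exact binomial and Poisson intervals at the 95% level. Gene positions are from Gencode M21 on GRCm38. The members, gene lists and tests were chosen with earlier results of these data known. For the comparison with other cells, the rule named the 12 genes with the greatest lowest-library ratio. For the globin classes it would have named genes past the threshold, and found none, so genes named there were chosen after their values were seen. Same-library sums correlated in their deviations from the class means by 0.02, -0.03 and 0.75 over 1366 genes, and sums of different metaphyseal libraries by 0.54 and 0.59. The pairing rests on the 2 sums of a library being from 1 suspension. Some genes that the rule or the lists name are not reported here. Measurements other than these counts were not analysed here.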

Additional observations from a re-analysis of the deposited data

Results flagged for a closer look

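Barcodes that met the erythroid marks but had too few genes to be kept appeared outside the measurement above, in 73 barcodes of metaphyseal replicate 1, 67 of replicate 2 and 306 of the Pdgfra-GFP library. Their median globin share was 81.2, 82.1 and 92.5%, at median depths of 7665, 6951 and 8380 UMIs, against median depths of 12938, 11832 and 8562 UMIs in the kept erythroid barcodes. Relative to non-globin UMIs, Bpgm had 9360, 9909 and 20000 CPM in them against 2246, 1207 and 486 in the kept erythroid barcodes. The late gene list summed to 45440, 44307 and 63466 CPM against 9168, 7621 and 5997, and the ribosomal protein genes to 40166, 39647 and 75442 CPM against 142239, 116941 and 188396. The S-phase list summed to 1145, 687 and 1244 CPM against 3621, 3207 and 5787. G2/M genes did not share one direction, with 10921, 10808 and 7104 CPM against 4989, 6345 and 9023. Against the kept barcodes without leukocyte RNA (11, 6 and 66), whose G2/M genes summed to 7783, 14002 and 9023 CPM, replicate 2 turned. In those, Bpgm had 1536, 56.3 and 486 CPM, the late list 8421, 6790 and 5997, the S-phase list 5860, 6790 and 5787 and the ribosomal protein genes 159593, 143795 and 188396, with the same directions as above. Other cells' RNA was also present, with the neutrophil list at 5915, 33124 and 1023 CPM and the stromal list at 1679, 1949 and 23751 CPM.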

How the results depend on the processing

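In 85 of 106 alternative values a share stayed within its interval or a count within 1.5 times. The test over all barcodes entered as all, higher and lower genes, each with 12 of 15 values unchanged. Those unchanged values were 0 against 0, for which a limit of 1.5 times says little. Leaving out doublet calls could not change the erythroid barcodes, since none of them was called. The 85 therefore overstate how stable the results are. A minimum of 500 genes gave erythroid shares of 1.58, 1.48 and 0.777%. The 573 genes higher in every library became 234 at a minimum of 100 CPM and 327 with globin kept in the totals, and 689 to 934 with each library left out, 934 of them without the Pdgfra-GFP library. The thinned G2/M share of replicate 1 was 81.8% without barcodes with leukocyte RNA. Between the globin classes, the 0 calls of edgeR became 32 with DESeq2 (30 higher, 2 lower, 821 with no adjusted p), 45 with no filter (15 higher, 30 lower) and 159 (70 higher, 89 lower) in the 59 barcodes, a subset added after the data were seen. They stayed at 0 without the replicate block, with each library left out and without barcodes over 1% stromal RNA. In that subset the 159 became 98 with no filter, 30 with ribosomal protein genes left out (8 higher, 22 lower), 0 without the block and 0 to 112 with each library left out: 112 without replicate 1, 0 without replicate 2 and 76 without the Pdgfra-GFP library. The causes were not tested.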
